A study of Mus musculus with 10 samples.

Results

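Pam3CSK4 for 1 h against no treatment was compared in mouse bone-marrow-derived macrophages, over 4 of the 10 RNA-seq libraries of the series. The libraries were chosen by their labels, 2 of Pam3CSK4 at 1 h (replicates 1 and 3) and 2 untreated controls (replicates 2 and 3). Of 11617 genes listed in the deposited table, the 11407 that averaged 1 CPM or more in the 10 libraries were tested. CPM is a gene's read count relative to a library size that the authors scaled.

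The macrophages came from C57BL/6 mice, whose age is 7 weeks in one label and 6 weeks in another. They were grown with GM-CSF, a myeloid growth factor, at 50 ng/ml in DMEM that held 10% fetal bovine serum, and the labels name no genetic change in any group. Pam3CSK4 was given at 10 ng/ml for 1 h, and the control cells received nothing and carry no time label. The other 6 libraries were 2 each of AmTARS at 1 h, AmTARS at 3 h and Pam3CSK4 at 3 h. The series set both agents side by side as ligands of the receptor TLR2. Whether replicate libraries stem from different cultures or mice is not labelled, so p-values may measure technical spread alone.

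Pam3CSK4 is a synthetic lipopeptide with 3 acyl chains that binds TLR2 paired with TLR1. The receptor pair recruits MyD88 and the IRAK kinases, which lead to the transcription factor NF-kB and to the MAP kinases. In macrophages, a first set of genes is known to be switched on by proteins that the cell already holds, and a later set needs newly made protein. Many genes of the first set encode brakes on the same pathway, among them inhibitors of NF-kB, phosphatases of MAP kinases and a protein that shortens the life of cytokine mRNA.

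Reads in the listed genes numbered 27398791 and 35836270 in the Pam3CSK4 libraries, against 33600803 and 34415950 in the control libraries. One CPM stood for 27 to 37.4 reads in the 10 libraries, and the 30 genes with the largest changes that are named below had between 37 and 12932 reads in each of the 4 libraries. Macrophage markers were abundant in each library. Adgre1, which encodes the surface antigen F4/80, had 624 and 635 CPM in the Pam3CSK4 libraries, against 767 and 779 CPM in the control libraries. Lyz2, the gene of lysozyme, had 46746 and 46239 CPM with Pam3CSK4, against 42922 and 44827 CPM in control. Cd68, a lysosomal glycoprotein gene of macrophages, had 1541 and 1594 CPM with Pam3CSK4, against 1654 and 1589 CPM in control, with overlapping libraries. Neither Lyz2 nor Cd68 passed the test. Over all genes tested, 23.9% were higher and 24.8% lower with Pam3CSK4. After a correction for transcript length and GC content, described with the size of the response, the shares were 11.4% and 10.6%. Of 15 macrophage markers tested, 5 were higher and 6 lower with Pam3CSK4, and 3 and 6 after the correction. Their CPM summed to 56551.8 and 55888.4 with Pam3CSK4, against 52473.5 and 54082.2 in control. The lymphocyte and natural killer markers Cd3e, Cd79a, Ms4a1 and Ncr1 were not among the listed genes. Of the 3 markers of that list that were tested 1 was lower, and 1 after the correction. Of 11 markers of stromal, endothelial, mast and erythroid cells, 2 were lower, and 0 after the correction. Their sums were 1474.4 and 1604.5 CPM with Pam3CSK4, against 1673.4 and 1587.5 CPM in control. The lymphocyte call was lost without control replicate 2 or Pam3CSK4 replicate 3, and the stromal list had 1 lower without control replicate 2, control replicate 3 or Pam3CSK4 replicate 1.

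Neutrophil markers were called in both directions. Of 13 tested, 8 were higher and 3 lower with Pam3CSK4. After the correction, 6 were higher and 3 lower. Over all genes tested the shares were 23.9% higher and 24.8% lower, and 11.4% and 10.6% after the correction. The median transcript length of the list was 1025 nt, and of all genes up to 1239 nt 78.4% were higher and 0.5% lower as deposited. The CPM of the 13 markers summed to 3101.5 and 2708.5 with Pam3CSK4, against 2319.2 and 2394.6 in control. S100a8, which encodes a chain of calprotectin, had 583 and 475 CPM with Pam3CSK4, against 327 and 386 CPM in control. S100a9, the other chain, had 1037 and 845 CPM with Pam3CSK4, against 624 and 657 CPM in control. Their log2 fold changes were 0.56 (SE 0.09) and 0.55 (SE 0.07), and 0.20 and 0.19 after that correction. The neutrophil collagenase gene Mmp8 went the other way, with 411 and 417 CPM with Pam3CSK4, against 509 and 517 CPM in control. Ly6g, the defining neutrophil marker, was not among the listed genes. The part of such cells in the results that follow was not tested, and in bulk RNA fewer cells of a type and less RNA per cell cannot be told apart.

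Within 1 h, 2730 genes were higher and 2826 lower with Pam3CSK4 than in control (limma on the log2(CPM + 1) values, Benjamini-Hochberg adjusted p below 0.05 over all genes tested). That is 23.9% and 24.8% of the genes tested. Most differences were small, and the median absolute log2 fold change of the genes that changed was 0.302. Rises of at least 2-fold numbered 15 and falls of that size 21. With CPM taken per reads in the listed genes, the split was 1932 higher and 3662 lower. The listed genes' CPM added up to 1014720 and 998260 with Pam3CSK4, against 959639 and 960837 in control. In the AmTARS 1 h libraries it added up to 1009840 and 1003600, and the control sums were the lowest of the 10 libraries. In the scale as deposited, the median change over all genes was -0.003.

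Short transcripts were higher and long ones lower. Over 10 length bins of like size, in the bin of the shortest transcripts (up to 1239 nt) 78.4% of genes were higher and 0.5% lower with Pam3CSK4, and in the bin of the longest (6463 nt or more) 1% were higher and 73.4% lower. Length and log2 fold change had a Spearman's rho of -0.74 over 11368 genes, which do not count as independent replicates. It was -0.743 for Pam3CSK4 replicate 1 and -0.696 for replicate 3, each against the control mean. Between libraries of 1 group rho was 0.449 for Pam3CSK4 replicate 3 minus replicate 1 and -0.228 for control replicate 3 minus replicate 2. After each library was corrected for length and GC content, rho was -0.013. The correction takes out each library's fitted length trend, so that value follows from the step itself. With it, 1298 genes were higher and 1205 lower, or 11.4% and 10.6% of 11368. That total of 2503 was 1169 without Pam3CSK4 replicate 1 and 1144 without control replicate 2. Rises of at least 2-fold then numbered 11 and falls 6. Between Pam3CSK4 and AmTARS at 1 h, 0 of 30 ribosomal protein genes (median length 855.5 nt) differed, with a median log2 difference of 0.069. Of 23 zinc finger and chromatin genes with long transcripts 0 differed, with a median of -0.02. Against control the medians of these lists were 0.421 and -0.402. The part of the shared control libraries in the trend was not tested. Whether the length trend lies in the cells or in the libraries was not tested, so each gene is given as deposited, and its corrected value follows where it bears on the call.

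**Figure D1:**
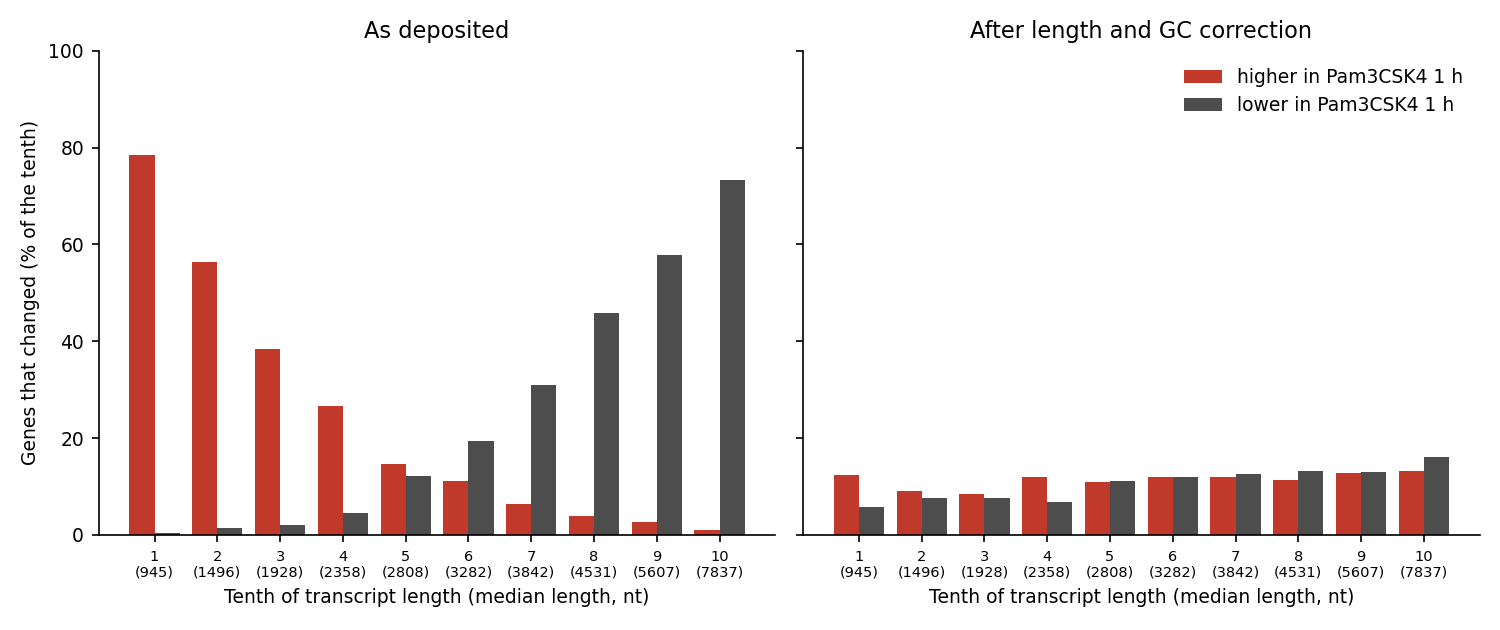
Share of genes higher (red) or lower (grey) in Pam3CSK4 1 h than in control, in percent of each of 10 bins of transcript length, with the median length in nt under each bin. As deposited (left) the share higher runs from 78.4% in the shortest bin to 1% in the longest. After the correction (right) the shares higher lie between 8.5% and 13.3%. The correction takes out each library's fitted length trend, so a flatter right panel follows from the step itself.

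The 15 genes that rose at least 2-fold had few exons, with a median of 4 against 9 over all genes tested, and 80% of them had at most 4 exons against 20.7% of all genes. Their median transcript length was 1617 nt, against 3033.5 nt over all genes. The 21 genes that fell at least 2-fold had a median length of 7864 nt and 11 exons. For each gene set against control below, both libraries of one group lay above both of the other, unless an overlap is named. List counts against control below are to be read beside the shares over all genes. These were 23.9% higher and 24.8% lower as deposited, and 11.4% and 10.6% after the correction.

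The 3 largest rises were those of the chemokine genes Cxcl2 and Cxcl1 and of Tnf. Cxcl2, whose protein attracts neutrophils through CXCR2, had 129 and 128 CPM in the Pam3CSK4 libraries, against 16.7 and 18.8 CPM in the control libraries. The libraries of a group lay close together, and the log2 fold change was 2.79 (SE 0.11, adjusted p = 3.19e-13). Tnf, which encodes tumour necrosis factor and lies on chromosome 17, 35199381 to 35202007 (mm10), had 165 and 165 CPM with Pam3CSK4, against 23.7 and 23.6 CPM in control. Its log2 fold change was 2.75 (SE 0.07, adjusted p = 5.38e-16), with the lowest adjusted p among the genes named here. Cxcl1, a neighbour of Cxcl2 on chromosome 5 with the same receptor, had 57.03 and 51.2 CPM with Pam3CSK4, against 12.6 and 12.005 CPM in control, a log2 fold change of 2.05 (SE 0.11). Il1b, the gene of interleukin-1 beta, had 59.9 and 58.8 CPM with Pam3CSK4, against 21.5 and 24.6 CPM in control, a log2 fold change of 1.33 (SE 0.13). After the length and GC correction Cxcl2, Tnf, Cxcl1 and Il1b stood at 2.56, 2.58, 1.79 and 1.14.

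**Figure D2:**
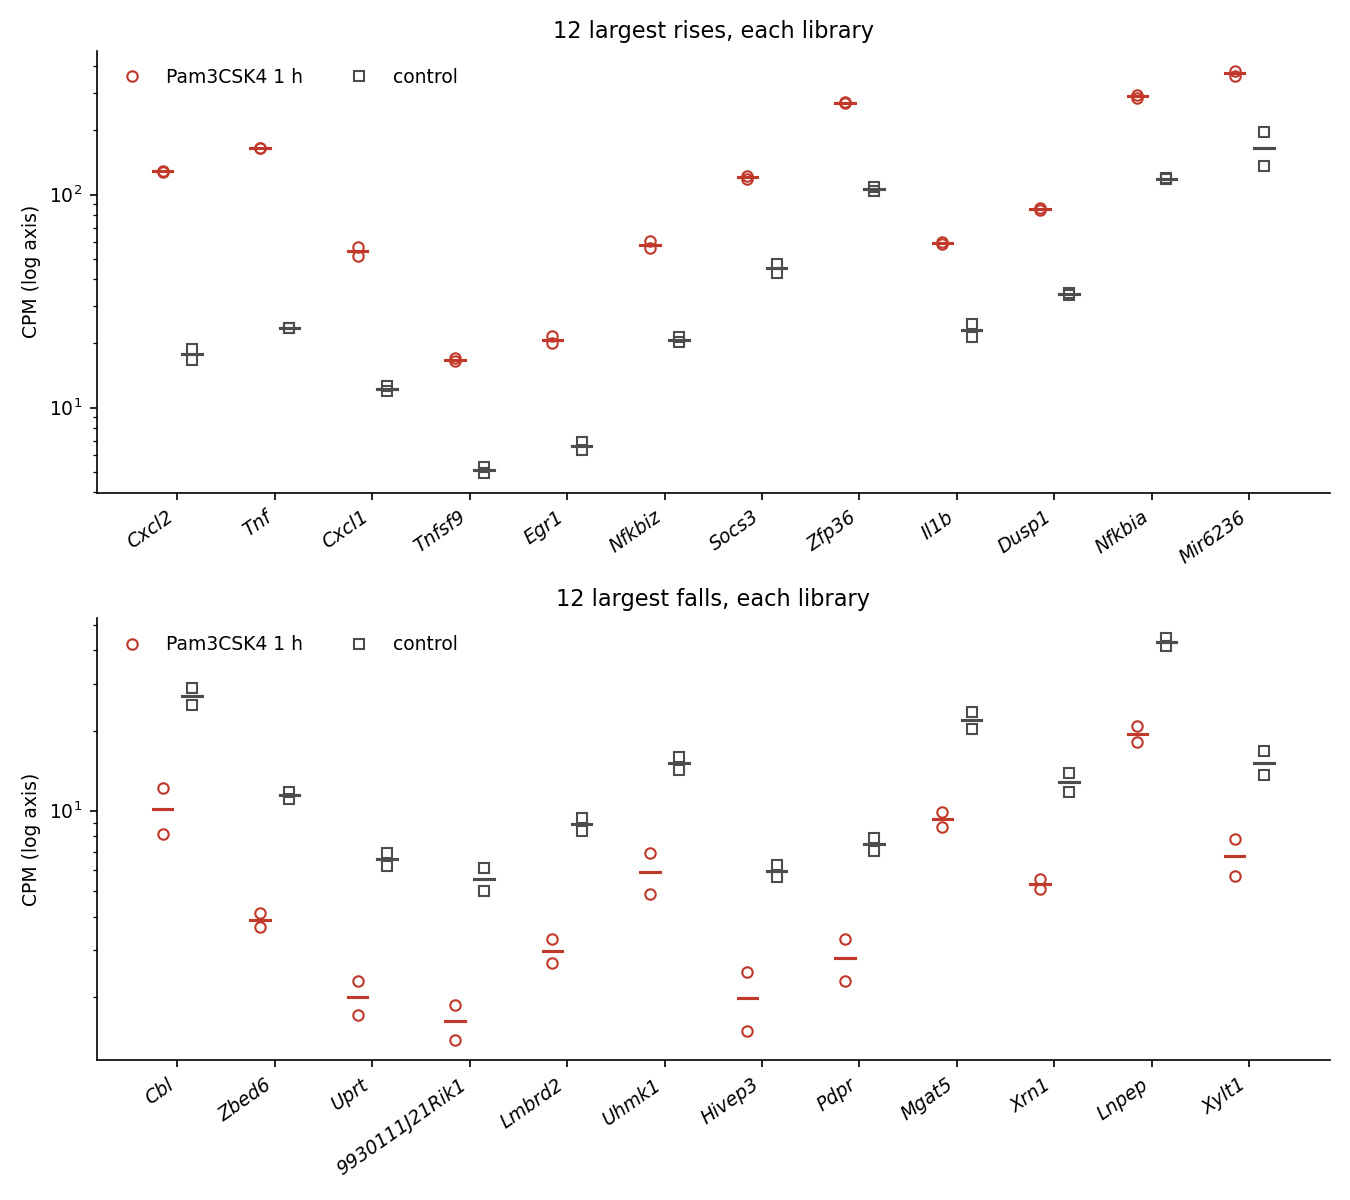
CPM on a log axis in each library (red circles, Pam3CSK4 1 h; grey squares, control; bars, group means) for the 12 largest rises and the 12 largest falls among genes with at least 5 CPM. For each gene both circles lie on the same side of both squares.

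Of 20 cytokine and growth factor genes tested, 7 were higher and 1 lower with Pam3CSK4, and 7 and 2 after the correction. Tnfsf9, which encodes the co-stimulatory ligand 4-1BBL, had 17.04 and 16.5 CPM in the Pam3CSK4 libraries, against 5.28 and 4.94 CPM in the control libraries, and rose by 1.54 (SE 0.09). Osm, the gene of oncostatin M, had 20.5 and 19.2 CPM with Pam3CSK4, against 9.91 and 10.7 CPM in control, and rose by 0.88 (SE 0.11). Il1a, the gene of interleukin-1 alpha, rose by 0.44 (SE 0.11). The gene that fell was Inhba, the subunit of activin A, with 9.89 and 13.1 CPM with Pam3CSK4, against 26.6 and 22.7 CPM in control, a log2 fold change of -1.04 (SE 0.11, adjusted p = 6.96e-07).

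Of 3 cytokine genes of the later response, Il6 and Il12b did not pass the test. Il6 had 2.22 and 2.95 CPM with Pam3CSK4, against 1.66 and 1.95 CPM in control, a log2 fold change of 0.35 (SE 0.17, adjusted p = 0.0983). Il12b, the gene of the p40 subunit of interleukin-12, had 2.15 and 1.59 CPM with Pam3CSK4, against 1.26 and 2.37 CPM in control, and its libraries overlapped between the groups. Il10, the gene of an anti-inflammatory cytokine, lay under the mean of 1 CPM, with 1.22 and 1.73 CPM with Pam3CSK4 against 0.486 and 0.614 CPM in control. When every listed gene was tested, Il10 was higher by 0.67 (SE 0.16, adjusted p = 0.00159). Csf3, Ereg and Edn1, the other listed members under that mean, did not pass there, and the libraries of Ereg and Edn1 overlapped between the groups.

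Of the 6 CXC chemokine genes of the neutrophil-attracting and platelet types 4 were higher and 0 lower, and of 9 CC chemokine genes 6 were higher and 0 lower. After the correction the counts were 3 and 1, and 3 and 0. The median transcript lengths of these lists were 1049.5 and 801 nt. Of all genes up to 1239 nt, 78.4% were higher and 0.5% lower, and 12.4% and 5.7% after the correction. Cxcl3 had 35.7 and 34.7 CPM in the Pam3CSK4 libraries, against 23.6 and 24.3 CPM in the control libraries, and its rise of 0.54 (SE 0.11) was smaller than those of Cxcl1 and Cxcl2. After the correction, Cxcl3 stood at 0.30 (adjusted p = 0.0203). The macrophage inflammatory protein gene Ccl3 had 51.2 and 49.03 CPM with Pam3CSK4, against 29.2 and 30.9 CPM in control, and rose by 0.72 (SE 0.11) (0.41 after the correction). Its relative Ccl4 had 19.6 and 18.8 CPM with Pam3CSK4, against 11.7 and 11.9 CPM in control, and rose by 0.66 (SE 0.10) (0.32 after the correction). Ccl7 and Ccl5, whose products attract monocytes and T cells, rose by 0.45 (SE 0.08) and 0.43 (SE 0.09), and after the correction were at 0.16 and 0.01 and no longer passed. Pf4, a platelet-type chemokine gene, rose by 0.45 (SE 0.07) and was at 0.09 after it. Cxcl10, known as an interferon target, had 14.6 and 9.33 CPM with Pam3CSK4, against 4.80 and 6.23 CPM in control, a rise of 0.97 (SE 0.14, adjusted p = 2.09e-05) with a wide gap between the Pam3CSK4 libraries.

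Promoter sequences are shown for 6 of the genes that rose, chosen because their windows hold a motif, and for Cbl, the gene with the lowest log2 fold change, to set motifs of NF-kB, serum response factor, AP-1 and CREB beside the values. Each is the 250 bases before the start site from RefSeq on GRCm38.p6, the assembly behind mm10, read 5′ to 3′ on the gene's strand. Capitals mark matches of the NF-kB motif, of the serum response element, of the AP-1 motif TGANTCA and of the cyclic AMP response element TGACGTCA, searched on both strands.
Cxcl2 (chr5:90903649-90903898, plus strand): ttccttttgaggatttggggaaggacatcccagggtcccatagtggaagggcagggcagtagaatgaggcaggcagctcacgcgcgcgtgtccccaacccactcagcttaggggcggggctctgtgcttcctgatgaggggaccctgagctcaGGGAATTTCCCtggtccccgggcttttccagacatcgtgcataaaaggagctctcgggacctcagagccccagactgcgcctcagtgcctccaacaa
Cxcl1 (chr5:90890995-90891244, plus strand): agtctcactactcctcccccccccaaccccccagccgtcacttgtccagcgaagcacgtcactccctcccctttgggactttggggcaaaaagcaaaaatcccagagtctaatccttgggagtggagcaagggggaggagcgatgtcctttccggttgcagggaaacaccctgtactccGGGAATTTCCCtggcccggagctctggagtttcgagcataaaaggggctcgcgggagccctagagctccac
Nfkbia (chr12:55492648-55492897, minus strand): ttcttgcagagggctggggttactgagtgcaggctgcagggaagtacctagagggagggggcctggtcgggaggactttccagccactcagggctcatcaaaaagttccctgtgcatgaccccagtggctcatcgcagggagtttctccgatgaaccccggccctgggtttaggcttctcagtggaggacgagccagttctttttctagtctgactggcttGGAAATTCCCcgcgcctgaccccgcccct
Tnfaip3 (chr10:19015411-19015660, minus strand): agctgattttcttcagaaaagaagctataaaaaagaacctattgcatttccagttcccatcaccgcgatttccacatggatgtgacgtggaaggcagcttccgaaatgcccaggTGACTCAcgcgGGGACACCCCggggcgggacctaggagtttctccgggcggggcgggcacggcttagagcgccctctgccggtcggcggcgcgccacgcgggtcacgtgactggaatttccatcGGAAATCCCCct
Zfp36 (chr7:28379229-28379478, minus strand): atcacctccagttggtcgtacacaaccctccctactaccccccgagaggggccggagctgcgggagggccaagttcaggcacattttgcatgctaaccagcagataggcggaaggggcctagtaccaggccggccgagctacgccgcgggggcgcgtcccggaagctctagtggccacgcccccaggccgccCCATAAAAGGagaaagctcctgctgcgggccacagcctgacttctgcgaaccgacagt
Dusp1 (chr17:26508473-26508722, minus strand): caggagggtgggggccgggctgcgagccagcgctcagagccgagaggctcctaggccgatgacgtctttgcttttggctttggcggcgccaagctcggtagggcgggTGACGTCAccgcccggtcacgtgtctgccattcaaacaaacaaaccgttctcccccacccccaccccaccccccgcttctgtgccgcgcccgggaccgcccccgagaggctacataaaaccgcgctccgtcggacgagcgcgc
Cbl (chr9:44234047-44234296, minus strand): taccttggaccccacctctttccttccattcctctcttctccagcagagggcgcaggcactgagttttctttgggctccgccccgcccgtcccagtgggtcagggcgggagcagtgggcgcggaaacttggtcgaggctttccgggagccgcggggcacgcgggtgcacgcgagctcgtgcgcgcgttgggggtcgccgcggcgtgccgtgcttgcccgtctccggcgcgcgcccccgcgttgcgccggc

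Cxcl2 and Cxcl1 carried the same stretch, GGGAATTTCCC, which holds overlapping NF-kB matches. They begin 97 and 96 bases before the start of Cxcl2 and 71 and 70 bases before that of Cxcl1. Nfkbia had a match at 29 bases and Tnfaip3 at 125 and 12 bases, with an AP-1 match at 136. Zfp36 had a serum response element at 58 bases and Dusp1 a cyclic AMP response element at 143. The window of Cbl held none of the 4 motifs, which says only that these letters are not in it. Nor did those of Tnf, Socs3 and Il1b, while Tlr9 and 9930111J21Rik1, which fell, held an AP-1 match and Pdpr, which also fell, a cyclic AMP response element. In windows of 250 bases before to 50 bases after the start, an NF-kB match was found in 4 of the 11 genes with a window that rose at least 2-fold (36.4%), and in 476 of all 9093 genes with a window (5.2%). Among the 19 genes with a window that fell at least 2-fold, it was 1 (5.3%). The AP-1 motif was in 0 of those 11 windows, 1 of those 19 and 433 of the 9093 (4.8%), and the cyclic AMP response element in 1, 2 and 300 (3.3%). A serum response element was in 1 of the 11, 0 of the 19 and 120 of the 9093 (1.3%). A match is a description of the sequence and not a bound site.

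Toll-like receptor genes divided. Of 12 receptor and co-receptor genes tested, 3 were higher and 9 lower with Pam3CSK4, and 2 and 6 after the correction. Cd14, which hands lipids to the receptors, had 906 and 900.0 CPM in the Pam3CSK4 libraries, against 626 and 617 CPM in the control libraries, and rose by 0.54 (SE 0.07, adjusted p = 6.67e-06). Tlr2, the receptor of the ligand itself, had 292 and 290.0 CPM with Pam3CSK4, against 245 and 249 CPM in control, and rose by 0.24 (SE 0.06). Ly96, the co-receptor MD-2 of TLR4, rose by 0.34 (SE 0.09) and was at 0.05 after the correction; without control replicate 2 or Pam3CSK4 replicate 1 it did not pass.

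The partners of TLR2 went the other way. Tlr1, the partner for lipopeptides with 3 acyl chains, had 23.9 and 23.2 CPM in the Pam3CSK4 libraries, against 29.2 and 29.3 CPM in the control libraries, and fell by 0.30 on the log2 scale (adjusted p = 0.00192). Tlr6, the partner for those with fewer chains, had 14.8 and 14.6 CPM with Pam3CSK4, against 19.5 and 17.2 CPM in control; its fall of 0.30 was not called without control replicate 2 or after the correction. The lowest log2 fold changes of the list were those of Tlr9 and Tlr8, receptors of endosomes. Tlr9, a sensor of unmethylated DNA, had 11.3 and 14.6 CPM with Pam3CSK4, against 27.02 and 23.7 CPM in control, a log2 fold change of -0.92 (SE 0.10, adjusted p = 7.48e-07). Tlr8, a sensor of single-stranded RNA in human cells, had 77.03 and 89.2 CPM with Pam3CSK4, against 156 and 153 CPM in control, a log2 fold change of -0.89 (SE 0.06, adjusted p = 7.97e-09). Tlr7 and Tlr13, sensors of single-stranded and of bacterial ribosomal RNA, stood at -0.44 (SE 0.05) and -0.37 (SE 0.05). Tlr4, the receptor of lipopolysaccharide, had 62.3 and 67.97 CPM with Pam3CSK4, against 92.9 and 88.9 CPM in control, a log2 fold change of -0.48 (SE 0.07). Length corrections left Tlr9, Tlr8, Tlr4, Tlr7 and Tlr13 at -0.94, -0.77, -0.29, -0.28 and -0.22, each with an adjusted p below 0.05.

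Signalling genes downstream of the receptor changed by small amounts. Their counts stand beside 23.9% higher and 24.8% lower over all genes tested, and 11.4% and 10.6% after the correction. Of 15 MyD88 pathway genes, 3 were higher and 7 lower, and 2 and 2 after the correction; the 7 became 3 without control replicate 2 and 4 without Pam3CSK4 replicate 1. Myd88, the adaptor, had 110.0 and 106 CPM in the Pam3CSK4 libraries, against 96.3 and 93.7 CPM in the control libraries, and its rise of 0.18 (SE 0.05) was 0.05 after the correction and was not called without control replicate 3 or Pam3CSK4 replicate 1. Tirap, the adaptor that bridges TLR2 and MyD88, had 14.7 and 14.7 CPM with Pam3CSK4, against 19.96 and 19.4 CPM in control, a log2 fold change of -0.40 (SE 0.08) (-0.22 after the correction). Map3k8, the kinase that opens the ERK branch, rose by 0.23 (SE 0.06). Of 15 MAP kinase genes 4 were higher and 4 lower, and 2 and 0 after the correction; without Pam3CSK4 replicate 1, 1 was lower. Map2k2, the kinase MEK2, had 133 and 127 CPM with Pam3CSK4, against 101 and 99.4 CPM in control, and rose by 0.37 (SE 0.05) (0.20 after the correction).

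Genes of NF-kB inhibitors rose, and the subunit gene Rel fell. Of 11 genes of the NF-kB and IkB family, 8 were higher and 2 lower with Pam3CSK4, and 5 and 1 after the correction. Nfkbia, which encodes the inhibitor IkB alpha, had 295 and 285 CPM in the Pam3CSK4 libraries, against 118 and 119.7 CPM in the control libraries, and rose by 1.28 (SE 0.05, adjusted p = 2.13e-12). Nfkbiz, whose protein IkB zeta works in the nucleus on late target genes, had 56.1 and 60.4 CPM with Pam3CSK4, against 21.3 and 20.4 CPM in control, and rose by 1.44 (SE 0.06, adjusted p = 4.43e-12). Nfkbid, Nfkbib and Nfkbie, genes of further inhibitors, rose by 0.81 (SE 0.07), 0.47 (SE 0.07) and 0.29 (SE 0.06), and were at 0.63, 0.27 and 0.19 after the correction. Of the subunits, Rela and Relb rose by 0.22 and 0.30 and were at 0.10 and 0.10 after the correction, where neither passed. Rel, the gene of c-Rel, had 4.9998 and 5.54 CPM with Pam3CSK4, against 9.54 and 8.99 CPM in control, a log2 fold change of -0.71 (SE 0.09, adjusted p = 6.52e-06) (-0.38 after the correction). Nfkb1, the gene of p105, stood at -0.24 (SE 0.07) (-0.15 after the correction), which was not called without Pam3CSK4 replicate 1.

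Most immediate-early transcription factor genes that changed were higher. Of 26 tested, 14 were higher and 2 lower, and 15 and 2 after the correction; without control replicate 2 or Pam3CSK4 replicate 1, 1 was lower. Egr1, a zinc finger factor induced by ERK signalling, had 21.6 and 20.1 CPM in the Pam3CSK4 libraries, against 6.34 and 6.92 CPM in the control libraries, and rose by 1.52 (SE 0.09, adjusted p = 7.59e-10). Junb, an AP-1 subunit gene, had 384 and 366 CPM with Pam3CSK4, against 181 and 171 CPM in control, and rose by 1.09 (SE 0.06). Fos, its partner, had 91.5 and 95.9 CPM with Pam3CSK4, against 52.98 and 50.7 CPM in control, and rose by 0.84 (SE 0.05). Nr4a1, an orphan nuclear receptor gene, had 23.5 and 26.1 CPM with Pam3CSK4, against 11.5 and 13.1 CPM in control, and rose by 0.96 (SE 0.10). Csrnp1, Ier2, Jund, Klf2, Btg2 and Irf1 rose by 0.42 to 0.68, and Ier2, Jund and Klf2 were at 0.36, 0.24 and 0.31 after the correction. Jun had 99.9 and 98.6 CPM with Pam3CSK4, against 105 and 98.6 CPM in control, with overlapping libraries, and at -0.04 (SE 0.07, adjusted p = 0.677) it did not pass. Atf3, a repressor of inflammatory genes, had 207 and 208 CPM with Pam3CSK4, against 219 and 223 CPM in control. At -0.09 (SE 0.04, adjusted p = 0.0812) it did not pass as deposited. After the correction Atf3 stood at -0.21 (adjusted p = 0.000161) and was called lower. The falls as deposited were those of Nr4a2, a relative of Nr4a1, at -0.31 (SE 0.11) and of Klf10, a factor of the Kruppel family, at -0.22 (SE 0.05). Nr4a2 did not pass after the correction.

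Single genes among the brakes on the pathway rose, while their lists held both directions. Zfp36 encodes tristetraprolin, which binds AU-rich elements of Tnf and other cytokine mRNA and speeds their decay. It had 268 and 271 CPM in the Pam3CSK4 libraries, against 108 and 104 CPM in the control libraries, and rose by 1.33 (SE 0.05, adjusted p = 6.25e-14). Zc3h12a, the gene of the RNase Regnase-1, had 90.2 and 96.8 CPM with Pam3CSK4, against 63.5 and 61.7 CPM in control, and rose by 0.57 (SE 0.06). Of 19 mRNA-decay regulators 5 were higher and 7 lower, against 23.9% and 24.8% of all genes, and 7 and 3 after the correction. Xrn1, the main 5′ to 3′ exonuclease of the cytoplasm, had 5.07 and 5.54 CPM with Pam3CSK4, against 13.8 and 11.7 CPM in control, a log2 fold change of -1.12 (SE 0.09, adjusted p = 8.44e-08) (-0.74 after the correction). Cnot1, the scaffold of the CCR4-NOT deadenylase, stood at -0.52 (SE 0.06) (-0.18 after the correction).

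Dusp1 encodes the phosphatase that switches off p38 and JNK. It had 85.1 and 86.2 CPM in the Pam3CSK4 libraries, against 33.9 and 34.5 CPM in the control libraries, and rose by 1.30 (SE 0.09, adjusted p = 1.85e-09). Dusp2, a phosphatase gene of lymphoid and myeloid cells, had 7.44 and 7.44 CPM with Pam3CSK4, against 2.46 and 3.18 CPM in control, and rose by 1.15 (SE 0.10). Of 18 genes of MAP kinase phosphatases and related feedback, 6 were higher and 4 lower, and 4 and 3 after the correction; without Pam3CSK4 replicate 1, 2 were lower. Gadd45b, a stress-induced regulator of MAP kinase signalling, rose by 0.55 (SE 0.06) (0.24 after the correction). Spred2, an inhibitor of the Ras to Raf step, had 4.30 and 5.88 CPM with Pam3CSK4, against 9.62 and 8.21 CPM in control, a log2 fold change of -0.71 (SE 0.11).

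Socs3 encodes the inhibitor of interleukin-6 receptor signalling. It had 122 and 119 CPM in the Pam3CSK4 libraries, against 47.3 and 43.1 CPM in the control libraries, and rose by 1.40 (SE 0.07, adjusted p = 2.61e-11). Cish, a further member of the SOCS family, had 6.85 and 6.63 CPM with Pam3CSK4, against 3.66 and 3.82 CPM in control, and rose by 0.71 (SE 0.12). The kinase genes Pim1 and Pim3 rose by 0.55 (SE 0.07) and 0.65 (SE 0.07). Of 14 genes of this feedback group 5 were higher and 3 lower, and 5 and 1 after the correction; without control replicate 2, 1 was lower. Tnfaip3, the gene of the ubiquitin-editing enzyme A20, had 78.9 and 85.1 CPM with Pam3CSK4, against 49.2 and 47.2 CPM in control, and rose by 0.75 (SE 0.06, adjusted p = 2.25e-08). It was the 1 gene higher of 14 ubiquitin-editing and IRAK-M brakes, of which 4 were lower, or 1 without control replicate 2 and 0 without Pam3CSK4 replicate 1. After the correction 5 were higher and 1 lower. Ier3, an early stress gene, had 95.7 and 90.5 CPM with Pam3CSK4, against 43.4 and 43.8 CPM in control, and rose by 1.08 (SE 0.06). Annotated exons on the other strand overlap those of the rises Zfp36, Dusp1, Il1b, Tnfsf9 and Junb and the falls Uhmk1, Pdpr, Mgat5, Xrn1 and Gatad2b. The same holds for Il1a, Cxcl10, Nfkbib, Jund, Jun, Irf1, Csrnp1, Cish, Pim1, Myd88, Tirap, Cnot1, Txnip, Hif1a, Slc30a1, Slamf7, March1, Ash1l, Zeb2, Ndufa2, Atp5a1, Rpl18, Gpr84 and Engase. Exons of another gene on the same strand overlap those of 9930111J21Rik1, Hivep3, Hif1a and Itgam, whose reads are uncertain. The library kit marked strand, and whether the counting used it is not given in the sources used here.

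Early primary response genes had the highest share of rises among the 37 lists after the ribosomal proteins. The lists were chosen with earlier results of these data known, so this rank is a description and not a test. Of 26 tested, 23 were higher and 1 lower, against 23.9% and 24.8% of all genes, and 24 and 1 after the correction. Their CPM summed to 2624.5 and 2575 with Pam3CSK4, against 1279.5 and 1268.3 in control. The 1 lower was Rel. Sod2, the mitochondrial superoxide dismutase gene, rose by 0.31 (SE 0.07). Ptgs2, the gene of cyclooxygenase-2, had 49.2 and 51.8 CPM with Pam3CSK4, against 44.8 and 47.1 CPM in control, and did not pass as deposited at 0.13 (SE 0.08, adjusted p = 0.177), while it stood at 0.34 (adjusted p = 0.0027) after the correction. Of 18 secondary response genes, 5 were higher and 2 lower, and 3 and 0 after the correction; the lower count was 1 without Pam3CSK4 replicate 3 and 4 without replicate 1. Nos2, the inducible nitric oxide synthase gene, had 15.4 and 17.5 CPM with Pam3CSK4, against 16.6 and 17.2 CPM in control; its libraries overlapped and the log2 fold change was -0.04 (SE 0.10, adjusted p = 0.785). Saa3 and Lcn2, acute-phase genes of macrophages, rose by 0.54 (SE 0.07) and 0.42 (SE 0.07), and after the correction were at 0.16 and 0.08, where Lcn2 no longer passed. Of 32 type I interferon response genes, 6 were higher and 10 lower, and 3 and 5 after it; without Pam3CSK4 replicate 3, 14 were higher. Isg15, a ubiquitin-like interferon target, had 85.2 and 70.9 CPM with Pam3CSK4, against 57.9 and 56.2 CPM in control, a rise of 0.44 (SE 0.07) that was 0.08 after the correction.

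**Figure D3:**
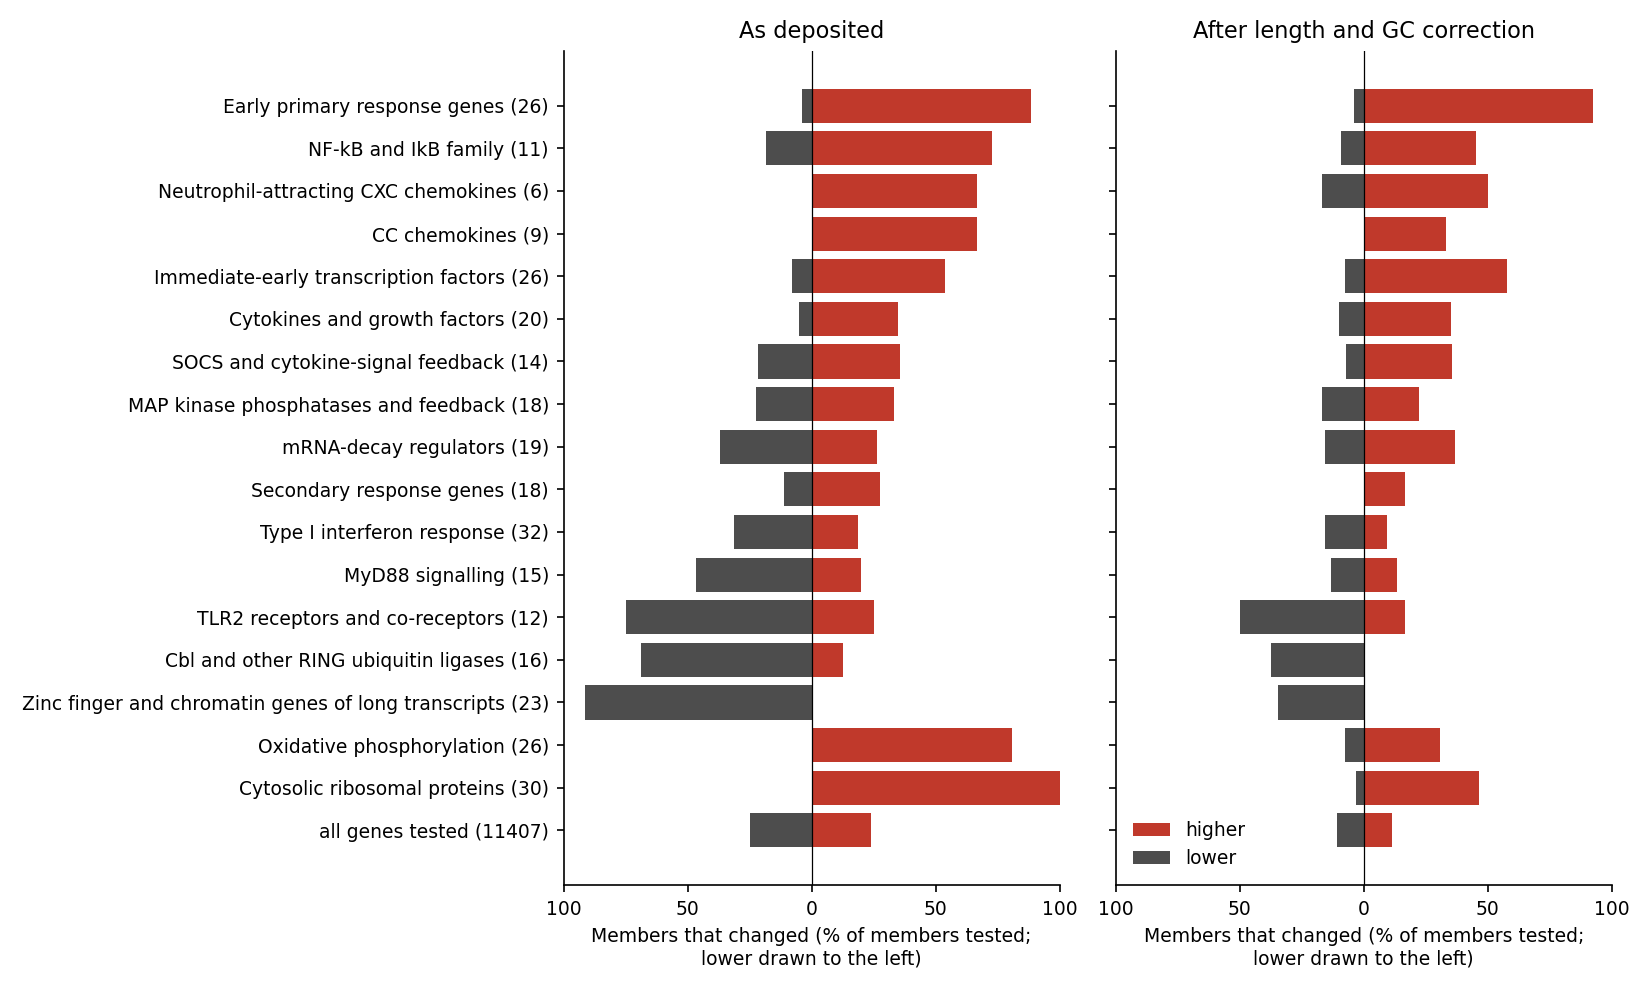
Share of the tested members of each gene list that were higher (red, to the right) or lower (grey, to the left) in Pam3CSK4 1 h than in control, in percent, with the number tested in brackets; the last row gives all genes tested. Early primary response genes keep 24 of 26 members higher after the length and GC correction (right), while ribosomal proteins go to 14 of 30.

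The largest falls were in genes of varied function. Cbl, the gene of a ubiquitin ligase that sends activated receptors to breakdown, had 8.15 and 12.1 CPM in the Pam3CSK4 libraries, against 28.9 and 24.9 CPM in the control libraries. The Pam3CSK4 libraries lay apart from each other and both below control, and the log2 fold change was -1.34 (SE 0.13, adjusted p = 3.78e-07). Uprt, a homologue of uracil phosphoribosyltransferase, had 1.70 and 2.28 CPM with Pam3CSK4, against 6.94 and 6.17 CPM in control, a log2 fold change of -1.34 (SE 0.14, adjusted p = 5.3e-07). Zbed6, a transposon-derived repressor known from pig muscle, had 3.67 and 4.12 CPM with Pam3CSK4, against 11.8 and 11.03 CPM in control, a log2 fold change of -1.34 (SE 0.14); it lies within Zc3h11a on the same strand and shares exons with it, so its reads are uncertain. Hivep3, a zinc finger factor that binds kB-like sites, had 1.48 and 2.48 CPM with Pam3CSK4, against 6.25 and 5.61 CPM in control, a log2 fold change of -1.24 (SE 0.16). Lmbrd2 and 9930111J21Rik1 stood at -1.32 (SE 0.14) and -1.33 (SE 0.19). These falls were not particular to Pam3CSK4. With AmTARS at 1 h, against the same control libraries, Cbl, Uprt and Zbed6 stood at -1.09, -0.95 and -1.20. Hivep3, Lmbrd2 and 9930111J21Rik1 stood at -0.90, -0.90 and -1.04 there. None of these genes passed the test between the ligands. The part of the shared control libraries in these falls was not tested.

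Enzymes of sugar chains and peptides were also among the falls. Mgat5, which branches N-linked glycans, had 8.67 and 9.92 CPM in the Pam3CSK4 libraries, against 23.5 and 20.3 CPM in the control libraries, a log2 fold change of -1.15 (SE 0.12). Xylt1, which starts proteoglycan chains, had 5.70 and 7.86 CPM with Pam3CSK4, against 16.7 and 13.6 CPM in control, a log2 fold change of -1.06 (SE 0.13). Lnpep, the insulin-regulated aminopeptidase, had 18.04 and 20.9 CPM with Pam3CSK4, against 44.4 and 41.7 CPM in control, a log2 fold change of -1.11 (SE 0.09, adjusted p = 4.89e-08) (-0.70 after the correction). Uhmk1, a kinase of splicing factors, and Pdpr, a regulator of pyruvate dehydrogenase phosphatase, stood at -1.24 (SE 0.14) and -1.17 (SE 0.13). After the correction Mgat5, Xylt1 and Uhmk1 were at -0.83, -0.74 and -0.91. The transcripts of Mgat5, Xylt1 and Lnpep measure 8436, 9020 and 12052 nt. With AmTARS at 1 h, against the same control libraries, Mgat5, Xylt1, Lnpep, Uhmk1 and Pdpr stood at -0.90, -0.87, -0.78, -1.04 and -1.03. None of them passed the test between the ligands. The number of falls of at least 2-fold depended on single libraries, being 10 without Pam3CSK4 replicate 1, 39 without Pam3CSK4 replicate 3 and 33 without control replicate 3.

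After the length and GC correction, Uprt and Inhba had the lowest log2 fold changes among genes with at least 5 CPM, at -1.36 (adjusted p = 5.27e-07) and -1.24 (adjusted p = 1.34e-07). Gatad2b, a subunit of the NuRD remodelling complex, had 4.89 and 5.49 CPM with Pam3CSK4, against 11.3 and 10.9 CPM in control, at -0.97 as deposited and -1.08 after it. Tm4sf19 and Snx29 stood at -0.71 and -0.88 as deposited and at -0.98 and -0.95 after it. Cbl, Hivep3, Lmbrd2, Pdpr, Zbed6 and 9930111J21Rik1 were at -0.98, -0.94, -0.93, -0.97, -1.11 and -1.21, in that order. Mir6236, a microRNA precursor listed among the 12 largest rises, had 381 and 360.2 CPM with Pam3CSK4, against 137 and 196 CPM in control, a log2 fold change of 1.18 as deposited and 0.68 after it. Rn45s, the ribosomal RNA precursor, had 1966 and 1693 CPM with Pam3CSK4, against 1611 and 1367 CPM in control and rose by 0.30 (SE 0.12, adjusted p = 0.0391), a call lost without control replicate 3 or Pam3CSK4 replicate 1.

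Long transcripts of ubiquitin ligases and chromatin genes were mostly lower as deposited, as were the longest transcripts over all genes. Of all genes tested, 23.9% were higher and 24.8% lower, and 11.4% and 10.6% after the correction. Of 16 ubiquitin ligase genes 2 were higher and 11 lower, and 0 and 6 after the correction; without control replicate 2 or Pam3CSK4 replicate 1, 1 was higher. March1, which removes MHC class II from the surface, had 47.96 and 48.8 CPM with Pam3CSK4, against 68.9 and 70.9 CPM in control, a log2 fold change of -0.52 (SE 0.06), and -0.34 after it. Itch, Smurf2 and Xiap, ligase genes of receptor and death signalling, stood at -0.41, -0.40 and -0.49, and at -0.16, -0.34 and -0.15 after it. Of 23 zinc finger and chromatin genes with long transcripts, a list of median length 9566 nt, 0 were higher and 21 lower. After the correction the counts were 0 and 8. Of all genes of 6463 nt or more, 1% were higher and 73.4% lower, and 13.3% and 16.1% after it. Ep300, a histone acetyltransferase that works with many induced factors, had 39.7 and 47.4 CPM with Pam3CSK4, against 72.5 and 68.8 CPM in control, a log2 fold change of -0.69 (SE 0.07), and -0.36 after it. Its relative Crebbp stood at -0.62 (SE 0.10), and -0.28 after it. Ash1l, a histone methyltransferase, and Zeb2, a repressor that shapes macrophage identity, were at -0.70 (SE 0.08) and -0.56 (SE 0.05), and at -0.32 and -0.31 after it.

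Genes of the ribosome and of respiration, most of them short, were higher. Of 30 cytosolic ribosomal protein genes, 30 were higher and 0 lower, and 14 and 1 after the correction, with a list median of 0.421 before and 0.085 after it. Rplp1, a stalk protein gene, had 1078 and 998 CPM in the Pam3CSK4 libraries, against 670.0 and 696 CPM in the control libraries, a rise of 0.60 (SE 0.05) that was 0.12 after the correction. Rpl18 rose by 0.57 (SE 0.05) and was at 0.11 after it. Of 26 oxidative phosphorylation genes 21 were higher and 0 lower, and 8 and 2 after the correction, with medians of 0.317 and 0.055. Ndufa2, a complex I subunit gene, had 108 and 98.4 CPM with Pam3CSK4, against 59.9 and 63.8 CPM in control, a rise of 0.73 (SE 0.06) and 0.35 after the correction. Atp5a1, an ATP synthase subunit gene and abundant, had 504 and 508 CPM with Pam3CSK4, against 489 and 495 CPM in control, and at 0.04 did not pass. The median over all genes was -0.003 as deposited and -0.001 after the correction.

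Glycolysis genes as a list were called, as deposited, no more often than all genes, of which 23.9% were higher and 24.8% lower. Of 23 tested, 5 were higher and 4 lower, and 2 and 5 after the correction; the higher count was 3 without control replicate 3 and the lower count 2 without control replicate 2 or Pam3CSK4 replicate 1, and 10 were higher without the Pam3CSK4 3 h libraries in the fit. Hif1a, the oxygen-regulated factor that drives glycolysis genes in activated macrophages, had 239 and 241 CPM in the Pam3CSK4 libraries, against 356 and 352 CPM in the control libraries, a log2 fold change of -0.56 (SE 0.06, adjusted p = 5.42e-07) (-0.34 after the correction). Pfkfb3, which sets the pace of phosphofructokinase, had 97.4 and 110.3 CPM with Pam3CSK4, against 141 and 137 CPM in control, a log2 fold change of -0.42 (SE 0.06) (-0.24 after the correction). Ldha, lactate dehydrogenase A, had 899 and 875 CPM with Pam3CSK4, against 759 and 772 CPM in control, a rise of 0.21 (SE 0.05) that was 0.08 after the correction. Txnip, which limits glucose uptake, had 421 and 420.3 CPM with Pam3CSK4, against 463 and 452 CPM in control; its small fall of 0.12 (adjusted p = 0.021) was not called without control replicate 2, Pam3CSK4 replicate 1 or Pam3CSK4 replicate 3. Abca1, the cholesterol exporter, had 83.9 and 92.7 CPM with Pam3CSK4, against 143 and 137 CPM in control, a log2 fold change of -0.66 (SE 0.06, adjusted p = 1.29e-07) and -0.30 after the correction. Of 22 sterol synthesis and efflux genes 6 were higher and 3 lower, and 6 and 1 after it; 3 were higher without control replicate 3 or Pam3CSK4 replicate 1, 1 lower without control replicate 2 or Pam3CSK4 replicate 1, and 7 lower without the Pam3CSK4 3 h libraries.

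Most MHC class II genes were higher as deposited, and most co-stimulation and adhesion genes did not pass the test. Of 11 MHC class II genes, 8 were higher and 1 lower, and 5 and 1 after the correction; the lower count was 0 without control replicate 2, control replicate 3 or Pam3CSK4 replicate 1. H2-Ab1, a class II chain, had 201 and 182 CPM in the Pam3CSK4 libraries, against 141 and 140.0 CPM in the control libraries, a rise of 0.44 (SE 0.05) and 0.11 after the correction. Cd74, the invariant chain, rose by 0.39 (SE 0.04) and was at 0.10 after it. Of 16 co-stimulation and adhesion genes, 1 was higher and 6 lower, and 2 and 6 after the correction; without Pam3CSK4 replicate 1, 0 were higher. Itgam, the CD11b integrin chain, had 636 and 673 CPM with Pam3CSK4, against 874 and 849 CPM in control, a log2 fold change of -0.40 (SE 0.05) (-0.21 after the correction). Itgal and Slamf7, genes of adhesion between leukocytes, stood at -0.35 (SE 0.05) and -0.36 (SE 0.05), and at -0.17 and -0.22 after the correction. Mertk, the receptor for dying cells, had 38.9 and 43.5 CPM with Pam3CSK4, against 67.1 and 62.3 CPM in control, a log2 fold change of -0.64 (SE 0.08, adjusted p = 6.35e-06), and -0.48 after the correction.

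For the lists that follow, the shares over all genes were 23.9% higher and 24.8% lower as deposited, and 11.4% and 10.6% after the correction. Of 23 cell cycle genes 5 were higher and 3 lower, and 1 and 1 after the correction; 1 was higher without control replicate 2, and 2 higher and 1 lower without Pam3CSK4 replicate 1. Of 12 M2 markers 2 were higher and 1 lower, and 1 and 2 after the correction; 1 was higher without Pam3CSK4 replicate 1. Of 15 M1 markers 6 were higher and 1 lower, and 3 and 1 after the correction; 3 were higher without Pam3CSK4 replicate 1 and 2 lower without Pam3CSK4 replicate 3. Of 21 apoptosis regulators 8 were higher and 3 lower, and 2 and 1 after the correction; 5, 5 and 4 were higher without control replicate 2, control replicate 3 and Pam3CSK4 replicate 1.

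Stress and lipid mediator lists are read against the same shares. Of 15 ATF4 stress genes 6 were higher and 3 lower, and 2 and 2 after the correction; without control replicate 3 the deposited counts were 3 and 1. Of 13 NRF2 genes 3 were higher and 2 lower, and 3 and 2 after the correction; 0 were lower without control replicate 3 and 1 without control replicate 2 or Pam3CSK4 replicate 1. Of 12 prostaglandin genes 3 were higher and 1 lower, and 4 and 0 after the correction; the lower call was lost without control replicate 3, Pam3CSK4 replicate 1 or Pam3CSK4 replicate 3. Of 7 arrestin-domain genes 2 were higher and 2 lower, and 1 and 1 after the correction or without control replicate 2, Pam3CSK4 replicate 1 or Pam3CSK4 replicate 3. Of 7 dendritic cell markers 3 were higher and 0 lower, and 1 and 0 after the correction; 1 was lower without Pam3CSK4 replicate 3, and Flt3, Zbtb46, Xcr1 and Clec9a were not among the listed genes. Of 6 RNA-quality transcripts 4 were higher and 1 lower, and 1 and 0 after the correction; 2 were higher without control replicate 3 or Pam3CSK4 replicate 1, and 0 lower without either control replicate or Pam3CSK4 replicate 1.

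Against AmTARS at 1 h, which the series also gives as a TLR2 ligand, Pam3CSK4 differed in 21 genes. With Pam3CSK4 20 were higher and 1 lower, or 0.175% and 0.00877% of 11407. The labels give the AmTARS dose in another kind of unit, so a difference in dose cannot be told apart from a difference between ligands. Cxcl2 had 129 and 128 CPM with Pam3CSK4, against 43.7 and 49.6 CPM with AmTARS, a log2 difference of 1.45 (SE 0.11, adjusted p = 4.08e-08). Tnf had 165 and 165 CPM with Pam3CSK4, against 63.99 and 71.7 CPM with AmTARS, a log2 difference of 1.27 (SE 0.07). Cxcl1 had 57.03 and 51.2 CPM with Pam3CSK4, against 22.3 and 22.8 CPM with AmTARS, a log2 difference of 1.23 (SE 0.11). Both AmTARS libraries of these 3 genes lay between the Pam3CSK4 and the control libraries.

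Egr1 had 21.6 and 20.1 CPM with Pam3CSK4, against 6.67 and 8.29 CPM with AmTARS, a log2 difference of 1.37 (SE 0.09, adjusted p = 1.34e-08), and its AmTARS libraries overlapped the control values of 6.34 and 6.92 CPM. Zfp36, Socs3, Dusp1, Nfkbiz, Dusp2, Ier3, Fos, Nfkbia, Tnfaip3, Nfkbid, Csrnp1, Id3 and Btg2 were higher with Pam3CSK4 by 0.31 to 0.80 on the log2 scale. Tnfsf9 had 17.04 and 16.5 CPM with Pam3CSK4, against 7.60 and 7.76 CPM with AmTARS, a log2 difference of 1.03 (SE 0.09). Txnip had 421 and 420.3 CPM with Pam3CSK4, against 229.8 and 232 CPM with AmTARS and 463 and 452 CPM in control, so that the AmTARS libraries were the lowest, and the log2 difference was 0.86 (SE 0.04, adjusted p = 8.41e-11). Its relative Arrdc4 had 50.7 and 51.8 CPM with Pam3CSK4, against 34.99 and 38.4 CPM with AmTARS, a log2 difference of 0.47 (SE 0.06), with 46.9 and 48.3 CPM in control. The 1 gene lower was Slc30a1, a zinc exporter, with 23.1 and 23.6 CPM with Pam3CSK4, against 31.1 and 28.9 CPM with AmTARS, a log2 difference of -0.35 (SE 0.06, adjusted p = 0.0112).

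Of 26 early primary response genes, a list chosen with earlier results of these data known, 15 were higher with Pam3CSK4 than with AmTARS and 0 lower (limma). Over all genes tested, 0.175% were higher and 0.00877% lower. The median log2 difference was 0.403 for that list and 0.102 for 18 secondary response genes, against 0.002 over all genes tested. The 21 genes became 34 when the Pam3CSK4 3 h libraries were left out of the fit, and 29 after the length and GC correction.

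**Figure D4:**
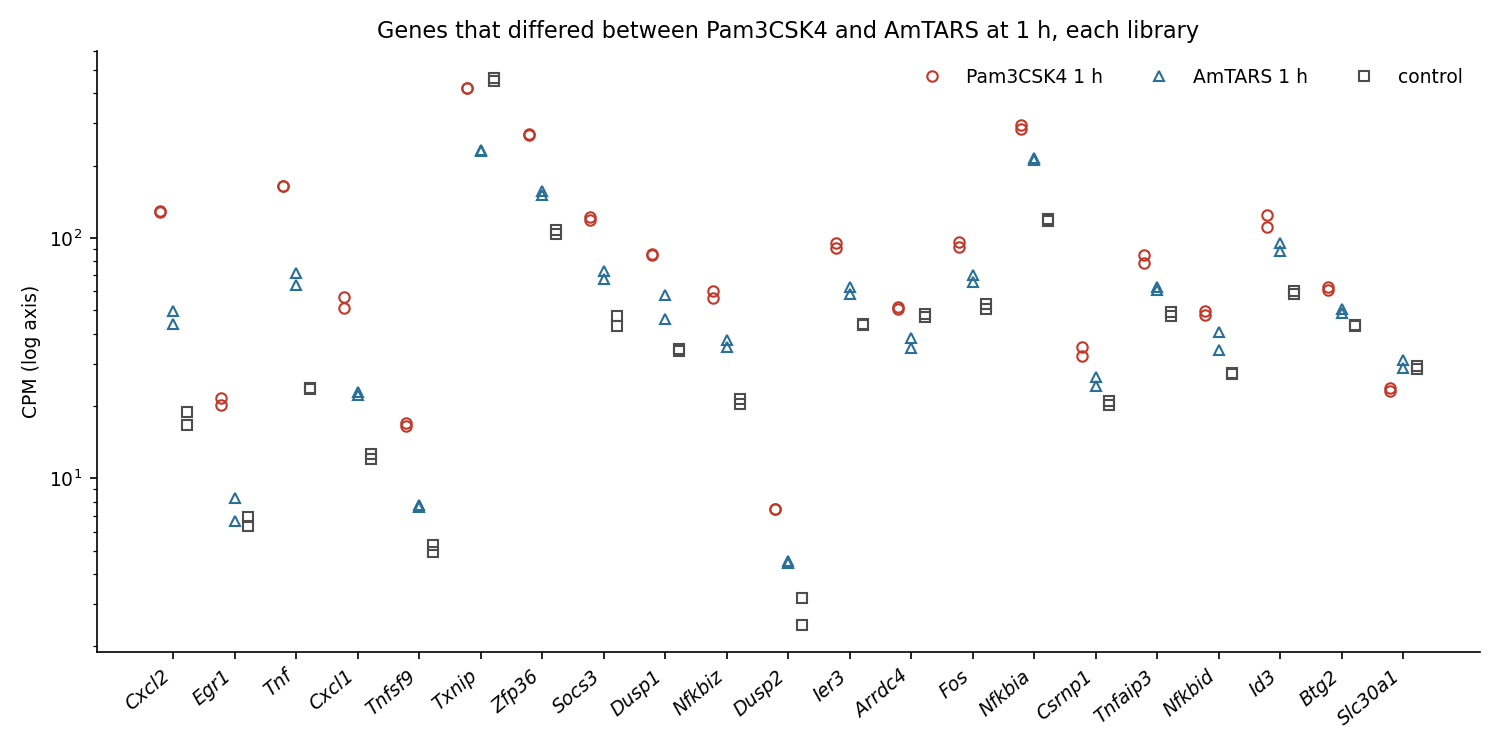
CPM on a log axis in each library for the 21 genes that differed between Pam3CSK4 and AmTARS at 1 h (red circles, Pam3CSK4; blue triangles, AmTARS; grey squares, control), ordered by the log2 difference. For most genes the AmTARS libraries lie between the other groups; for Txnip and Arrdc4 they lie below both, and for Slc30a1 the Pam3CSK4 libraries are the lowest.

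Between 1 h and 3 h of Pam3CSK4, 1851 genes were higher and 1746 lower at 3 h, or 16.2% and 15.3% of 11407. The total of 3597 was 2381 without Pam3CSK4 1 h replicate 1. Some genes had passed their highest measured level by 3 h. Egr1 had 6.34 and 6.92 CPM in control, 21.6 and 20.1 CPM at 1 h and 7.41 and 7.82 CPM at 3 h, and was lower at 3 h than at 1 h by a log2 difference of -1.34 (SE 0.09, adjusted p = 6.37e-10). Zfp36 had 108 and 104 CPM in control, 268 and 271 CPM at 1 h and 142 and 141 CPM at 3 h, a log2 difference of -0.92 (SE 0.05, adjusted p = 3.92e-12). Of 26 immediate-early transcription factor genes, 13 were lower and 5 higher at 3 h than at 1 h.

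Tnf, Nfkbia and Socs3 were higher still at 3 h, and Dusp1 and Tnfsf9 did not pass the test. Tnf had 186 and 228 CPM at 3 h, against 165 and 165 CPM at 1 h, a log2 difference of 0.32 (SE 0.07, adjusted p = 0.00179). Dusp1 had 75.5 and 92.6 CPM at 3 h, against 85.1 and 86.2 CPM at 1 h, with overlapping libraries and a log2 difference of -0.03 (SE 0.09, adjusted p = 0.796). Tnfsf9 had 16.6 and 19.1 CPM at 3 h, against 17.04 and 16.5 CPM at 1 h, also overlapping, a log2 difference of 0.08 (SE 0.09, adjusted p = 0.527). Nfkbia and Socs3 were higher at 3 h by 0.44 (SE 0.05) and 0.56 (SE 0.07).

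The largest rises after 1 h were those of Cxcl3, Rasgrp1, Ptges, Irg1, Gpr84 and Nos2. Cxcl3 had 219 and 326 CPM at 3 h, against 35.7 and 34.7 CPM at 1 h, a log2 difference of 2.89 (SE 0.11, adjusted p = 1.66e-13). Irg1, the enzyme that makes itaconate, had 882 and 1154 CPM at 3 h, against 198 and 186 CPM at 1 h, a log2 difference of 2.39 (SE 0.08). Nos2 had 73.2 and 99.1 CPM at 3 h, against 15.4 and 17.5 CPM at 1 h, a log2 difference of 2.30 (SE 0.10). Ptges, a prostaglandin E synthase, Gpr84, a receptor for medium-chain fatty acids, and Rasgrp1, a Ras activator, were higher at 3 h by 2.42 (SE 0.10), 2.32 (SE 0.11) and 2.50 (SE 0.12). Il1b, already higher at 1 h, had 206 and 332 CPM at 3 h, against 59.9 and 58.8 CPM at 1 h, a log2 difference of 2.12 (SE 0.13). Cxcl2 had 252 and 369 CPM at 3 h, against 129 and 128 CPM at 1 h, a log2 difference of 1.24 (SE 0.11). Of 18 secondary response genes 14 were higher at 3 h and 0 lower, and of 15 M1 markers 14 were higher and 0 lower. Over all genes tested, 16.2% were higher and 15.3% lower at 3 h. Both lists hold Il6, Il12b, Nos2, Cd40 and Marco, so their counts are not separate, and they were chosen with earlier results of these data known.

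The largest falls after 1 h, beside that of Egr1, were those of Rnf144b, Rgs2, Bmf, Engase and Abcd2. Rnf144b, a ubiquitin ligase gene, had 11.6 and 9.32 CPM at 3 h, against 27.3 and 25.96 CPM at 1 h, a log2 difference of -1.27 (SE 0.08). Rgs2, a brake on G protein signalling, had 57.7 and 48.98 CPM at 3 h, against 125 and 120.1 CPM at 1 h, and Bmf, a death gene of the BCL2 family, 16.8 and 13.04 CPM at 3 h, against 33.4 and 35.4 CPM at 1 h. Their log2 differences were -1.19 (SE 0.07) and -1.16 (SE 0.08). Engase, a deglycosylating enzyme, and Abcd2, a peroxisomal fatty acid transporter, were at -1.13 (SE 0.09) and -1.11 (SE 0.08). Cbl had 28.9 and 24.9 CPM in control, 8.15 and 12.1 CPM at 1 h and 19.8 and 16.3 CPM at 3 h, and was higher at 3 h than at 1 h by 0.79 (SE 0.13, adjusted p = 0.00011). Hivep3 had 6.25 and 5.61 CPM in control, 1.48 and 2.48 CPM at 1 h and 9.08 and 8.80 CPM at 3 h, and was higher at 3 h than at 1 h by 1.76 (SE 0.16, adjusted p = 2.23e-08). Inhba had 22.7 and 21.7 CPM at 3 h, against 9.89 and 13.1 CPM at 1 h, a log2 difference of 0.90 (SE 0.11). Of 30 ribosomal protein genes 19 were lower and 0 higher at 3 h than at 1 h, and of 23 chromatin genes 8 were higher and 0 lower. Over all genes 16.2% were higher and 15.3% lower at 3 h. The median transcript lengths of the 2 lists were 855.5 and 9566 nt, and these counts are not corrected for length. The part of transcript length in them was not tested. Of 12 Toll-like receptor and co-receptor genes, 6 were higher and 2 lower at 3 h.

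**Figure D5:**
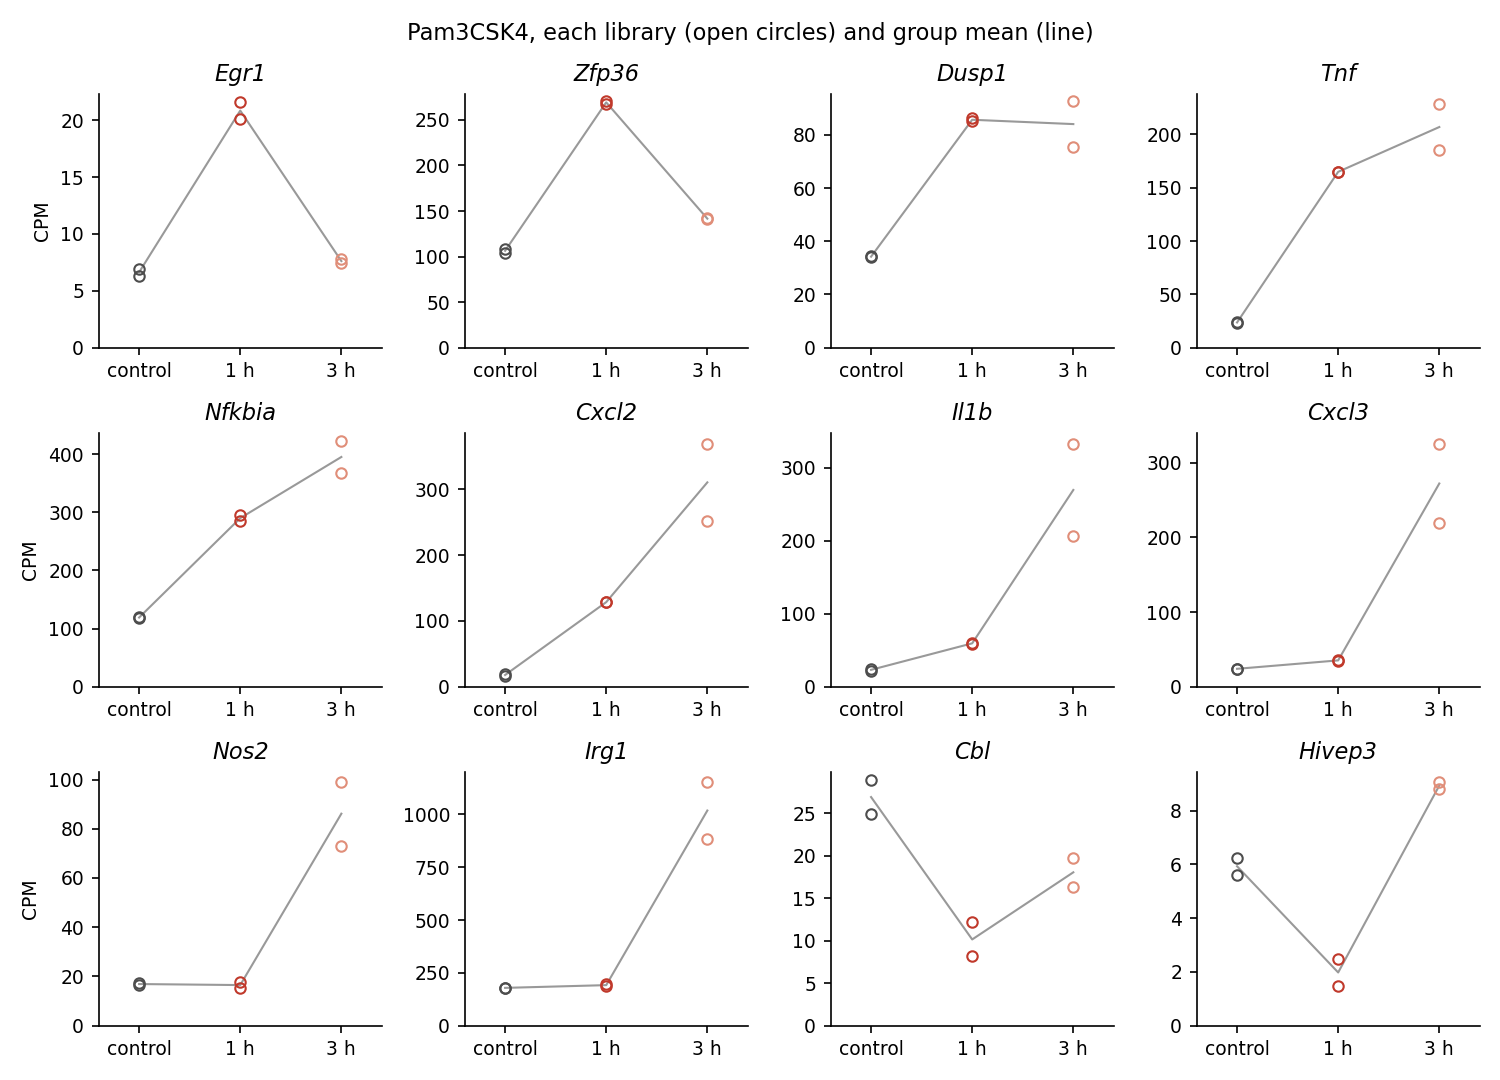
CPM in control, at 1 h and at 3 h of Pam3CSK4 for 12 genes, each axis starting at 0 (circles, libraries; grey line, group means). Egr1 and Zfp36 are highest at 1 h, the 1 h and 3 h libraries of Dusp1 overlap, Cxcl3, Nos2 and Irg1 are highest at 3 h, and Cbl and Hivep3 are lowest at 1 h.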

How the data were processed

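RNA was sequenced from 10 libraries of mouse macrophages in 5 groups of 2, grouped by their GEO labels. Per the submitters' processing notes, STAR 2.5.1, R 3.3.0 and the build mm10 were used; how reads were counted, with which annotation and with what use of strand is not given in the sources used here. What the authors deposited are log2 values of CPM plus 1 for 11617 genes. From the values, the CPM is relative to a scaled library size, and dividing by what 1 read is worth gave whole read counts for 100% of the deposited values in each library (tolerance 0.1 read).

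The 11407 genes that averaged 1 CPM or more were fitted over all 10 libraries with limma 3.58.1 in R 4.3.3 (group means, empirical Bayes with an intensity trend, 2-sided tests, 5 residual degrees of freedom). A call is a Benjamini-Hochberg adjusted p below 0.05 over all genes tested. Fold changes are on the log2(CPM + 1) scale, which understates the change of low genes. A count-based alternative ran limma's voom on the recovered reads. Tables and figures were made with Python 3.11.15, pandas 2.3.3 and matplotlib 3.10.9.

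Transcript length and GC content came from GENCODE annotation of the GRCm38 assembly, in which 11217 genes matched by symbol, 360 by another name and 40 not at all. The correction removed natural splines (5 degrees of freedom each) of log2 length and GC from each library. The length is that of the longest transcript with a RefSeq match, a definition settled after the data were seen; for some genes, Sod2 among them, it may exceed the form the cells use, and the corrected value is then too high. The fit and the correction were also run on simulated data. The simulated length trend was linear in log2 length and equal in every treated library, with no GC trend. That run therefore cannot tell how well the correction works on the real libraries.

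The members and gene lists were chosen with earlier results of these data known. Genes were named by rule: the 12 largest rises and falls among genes with at least 5 CPM in the higher group and groups that did not overlap, as deposited and after the correction; the 6 largest in each direction for the other contrasts; a set of pathway genes; and members of each list, with preference for the largest changes. The remaining genes that differed from AmTARS were named after their values were seen. Alternatives tried were other pseudocounts, filters, scalings, spread estimates, library subsets, a replicate block, the corrections and voom.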

Additional observations from a re-analysis of the deposited data

Results flagged for a closer look

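Effects that differed between ligands or between times were singled out by the test of the difference itself. Between Pam3CSK4 and AmTARS at 1 h, 21 genes differed. The log2 differences were 1.45 for Cxcl2, 1.37 for Egr1, 1.27 for Tnf, 1.23 for Cxcl1, 1.03 for Tnfsf9, 0.86 for Txnip and -0.35 for Slc30a1. The doses of the ligands cannot be set beside each other, so dose and ligand cannot be told apart.

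Between 3 h and 1 h of Pam3CSK4, 3597 genes differed. The log2 differences of the genes with the largest rises at 3 h were 2.89 for Cxcl3, 2.50 for Rasgrp1, 2.42 for Ptges, 2.39 for Irg1, 2.32 for Gpr84 and 2.30 for Nos2. Those of genes lower at 3 h were -1.34 for Egr1, -1.27 for Rnf144b, -1.19 for Rgs2, -1.16 for Bmf, -1.13 for Engase and -1.11 for Abcd2. The Pam3CSK4 3 h libraries of Cxcl3 lay at 219 and 326 CPM, a wider gap than the 35.7 and 34.7 CPM at 1 h.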

How the results depend on the processing

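The 5556 genes that differed between Pam3CSK4 at 1 h and control became 2503 after the length and GC correction (1298 higher, 1205 lower) and 2763 after a length correction alone (1438 and 1325). With single libraries also left out, alternatives chosen after seeing the data, the corrected totals were 1144 (664 higher, 480 lower) without control replicate 2, 1671 (890, 781) without control replicate 3, 1169 (626, 543) without Pam3CSK4 replicate 1 and 2104 (1109, 995) without Pam3CSK4 replicate 3. Without a correction, leaving out 1 library gave 3759 to 5138. The 21 falls of at least 2-fold were 13 at a mean of at least 5 CPM, 38 at a pseudocount of 0.25, 1 at a pseudocount of 5, 43 by voom, 6 and 7 under the corrections, 10 to 39 with 1 library left out, and 5 to 19 with both. The 15 rises were 14 to 20 with 1 library left out. The 21 genes that differed from AmTARS became 34 without the Pam3CSK4 3 h libraries and 16 to 25 with 1 library left out, and the 3597 between 3 h and 1 h ranged from 2381 to 3418. The Pam3CSK4 1 h and control groups share only replicate number 3, so the numbers do not pair them; with a replicate block over all 10 libraries 3746 genes differed (1838 and 1908), with 15 rises and 7 falls of at least 2-fold, 15 genes against AmTARS and 2648 between 3 h and 1 h, and the block with the correction gave 1190 (649 and 541) and 2 falls. Among named values called in either fit, signs reversed for Gpr84 under the block with the correction (-0.0013), for Abcd2 under the corrections (0.0684, 0.0247 for length alone, and 0.0603 with the block), and under length alone for Ly96 (-0.0576) and Lyz2 (-0.1686); Nos2 and Il12b, called in neither, also changed sign under the length and GC correction. The cause was not tested. Each library left out singly was of Pam3CSK4 1 h or control. No AmTARS 1 h or Pam3CSK4 3 h library was left out singly. The ranges against AmTARS and between 3 h and 1 h therefore do not cover the spread of those libraries. With 2 libraries a group, small differences near the threshold are the least certain.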
